A study of Mus musculus with 10 samples.

Results

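Triglyceride is released from liver droplets and taken from plasma lipoproteins by a small set of lipases, and 10 genes of that set are described here: Pnpla2, Pnpla3, Lipe, Mgll, Abhd5, G0s2, Lipc, Lpl, Lipa and Lipg. They were found by gene name, or by the older names Lip1 for Lipa and Adpn for Pnpla3, among the non-control probes of an Agilent mouse expression array. This gave 17 of 41174 probes, of which 16 passed the filter on dim probes described below, and 10 of 15804 genes. No probe carried the name Adpn (0 probes). RNA came from livers of 1-year-old C57BL/6 mice, with 5 arrays of wild-type mice and 5 of mice lacking the nuclear orphan receptor TAK1, also called TR4 and encoded by Nr2c2. The labels give no sex, diet, knockout allele or breeding scheme, and nothing in them states whether the arrays came from different mice, so the p-values cover only the variation among these samples, which may be technical. Arrays are called WT1 to WT5 and KO1 to KO5 by their group and replicate number.

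Inside the hepatocyte, Pnpla2 (adipose triglyceride lipase) takes the first fatty acid from triglyceride at the droplet surface, Lipe (hormone-sensitive lipase) acts on diacylglycerol, and Mgll (monoacylglycerol lipase) releases the last fatty acid. Abhd5 activates Pnpla2, and G0s2 inhibits it. Pnpla3 is a droplet-bound relative of Pnpla2 whose expression in liver follows feeding and lipid synthesis. Lipa digests cholesteryl esters and triglyceride in lysosomes. Lpl, Lipc and Lipg are secreted and act at vessel walls, Lpl on triglyceride-rich particles, Lipc (hepatic lipase) on remnants and HDL, and Lipg (endothelial lipase) mainly on HDL phospholipid.

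Levels are log2 of the background-subtracted signal minus the array's 75th percentile, so 0 is the signal of a probe at that percentile. A probe was kept when either group had 4 or 5 of its 5 arrays well above background by Feature Extraction's flag, and a gene was represented by its brightest kept probe. Differences are knockout minus wild type with the standard error of the limma fit over all genes. A gene is said to have changed, risen or fallen when its p, adjusted over all 15804 genes, was under 0.05. Because probes differ in hybridisation, no level is compared between probes.

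The arrays correlated at 0.988 to 0.994 within the wild type and at 0.965 to 0.988 within the knockout, and between 51.6% and 62.9% of spots were well above background. Of 4 slides, slide 1 carried the first 4 wild-type arrays and slide 2 carried WT5 with the first 3 knockout arrays; KO5 (slide 3) and KO4 (slide 4, scanned on a later day) were alone. Slide 2 was thus the only slide with both groups, and differences within it set KO1 to KO3 against WT5 only. Both probes that carry the name Nr2c2 were above background on all 10 arrays and were not lower in the knockout (0.36 ± 0.13 and 0.44 ± 0.11, adjusted p = 0.144 and 0.043 over the kept probes). The labels do not say which part of the gene is missing, so these probes do not check them. Placed between them on the opposite strand was a cDNA probe that is described as the Nr2c2 product but does not carry that name. It ran from -2.45 to -1.62 in the wild type and was above background on 0 knockout arrays, which makes it at least 5.41-fold lower (adjusted p = 0.0002). A further cDNA probe between them, on the plus strand, was well above background on 0 arrays and has no fold. The liver label fits the defining markers by level: the summed signal of 9 hepatocyte markers was 1267.6 to 1380 times the 75th percentile in the wild type and 1076.9 to 1442.6 times in the knockout, and 0 of the 9 changed by limma (1 higher and 1 lower at an unadjusted p under 0.05). Of their differences 8 were negative, with a median of -0.07.

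Among the 10 lipase and cofactor genes, Pnpla3 and Mgll fell in the knockout, 0 rose, and 8 did not pass the test. The 2 calls are 20% of the genes, beside 5.91% of all genes tested (934 genes; 384 or 2.43% higher and 550 or 3.48% lower). An unadjusted p under 0.05 was reached by 6 of the 10 (5 lower and 1 higher), beside 23.7% of all genes. Differences were negative for 7 genes and positive for 3, with a median of -0.38 against 0.01 over all genes. In this bulk tissue, fewer cells of a type and less RNA per cell cannot be told apart.

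Pnpla3 had by size the largest difference of the 10 genes. Its probe read 0.89, -0.94, -0.56, -2.52 and -0.16 in WT1 to WT5. It read -1.56, -4.96, -4.80, -5.10 and -4.16 in KO1 to KO5. The 4 arrays KO2 to KO5 lay below every wild-type array, while KO1 lay above WT4, so the groups overlapped. The difference was -3.46 ± 0.77 (n = 5 and 5, adjusted p = 0.031, limma), and -3.62 within slide 2. Only KO1 and KO5 were well above background among the knockout arrays, so the fold is a bound, at least 8.74-fold lower with the dim arrays raised to the detection floor. The call was lost when any of WT1, WT2, WT3, WT5, KO2, KO3, KO4 or KO5 was left out (adjusted p between 0.052 and 0.075, differences between -3.53 and -3.07). With normexp background correction the difference shrank to -1.90 (adjusted p = 0.228), without the filter on dim probes the adjusted p was 0.083, and with slide as a fixed block it was 0.516.

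Mgll, the enzyme of the last lipolytic step, was the 1 gene of the 10 whose groups did not overlap, beside 9.61% of all genes (5.43% with the knockout below). Its brightest probe read 5.89, 5.63, 5.39, 5.32 and 5.53 in WT1 to WT5. In KO1 to KO5 it read 5.27, 4.76, 5.11, 4.96 and 5.001. Every knockout array thus lay below every wild-type array, with KO1 at 5.27 and WT4 at 5.32 closest to each other. The difference was -0.53 ± 0.13, a 1.45-fold lower level (adjusted p = 0.039, limma; exact two-sided permutation p = 0.0079, the smallest 5 against 5 arrays can give), and -0.48 within slide 2. The call was lost without any of WT1, WT2, WT3, WT5, KO2, KO3, KO4 or KO5 (adjusted p between 0.056 and 0.102, differences between -0.57 and -0.45). It was also lost with normexp correction (0.180), without scaling between arrays (0.158), without the filter on dim probes (0.118) and with slide as a fixed block (0.624).

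A separate Mgll probe, which targets a different stretch of the same transcript, ran from 4.55 to 5.28 in the wild type and from 4.16 to 4.71 in the knockout. Its difference of -0.50 ± 0.14 was close in size to that of the brightest probe, but its adjusted p over the 23262 kept probes was 0.073. In that fit over probes 2 of the 16 kept lipase and cofactor probes fell, the brightest Mgll probe and the Pnpla3 probe, beside 5.04% of kept probes that changed and 2.98% that were lower. The remaining Mgll probe, made from a testis cDNA, was well above background on 0 arrays. The oligos below are shown because the file coordinates spread their 60 bases over 2304, 2254 and 3677 bases of genome (build mm7), so each crosses a gap between its parts in the genome. They are the second Mgll probe at chr6:88898474-88900777 on the plus strand, the brightest Lipe probe at chr7:22170761-22173014 on the minus strand, and the Lipc probe at chr9:70845219-70848895 on the minus strand. No base is marked in capitals.
Mgll: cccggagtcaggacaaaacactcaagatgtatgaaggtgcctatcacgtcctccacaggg
Lipe: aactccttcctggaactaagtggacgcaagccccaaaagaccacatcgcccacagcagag
Lipc: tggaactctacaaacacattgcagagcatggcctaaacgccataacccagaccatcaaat

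Mgll lies on chromosome 6, and its brightest probe at chr6:88903385-88903444 (mm7) is 3.28 Mb from the nearest Nr2c2 probe. No other of the 10 genes is on that chromosome. Of the 69 tested genes within 5 Mb of the Nr2c2 probes, 4 rose and 6 fell, Mgll among the latter, which is 14.5% beside 5.91% over all genes. Within 10 Mb the share was 11.5% of 157 genes, and within 20 Mb it was 10.3% of 194 genes. These distances were chosen after the values were seen, and what part this neighbourhood has in the Mgll difference was not tested.

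**Figure D1:**
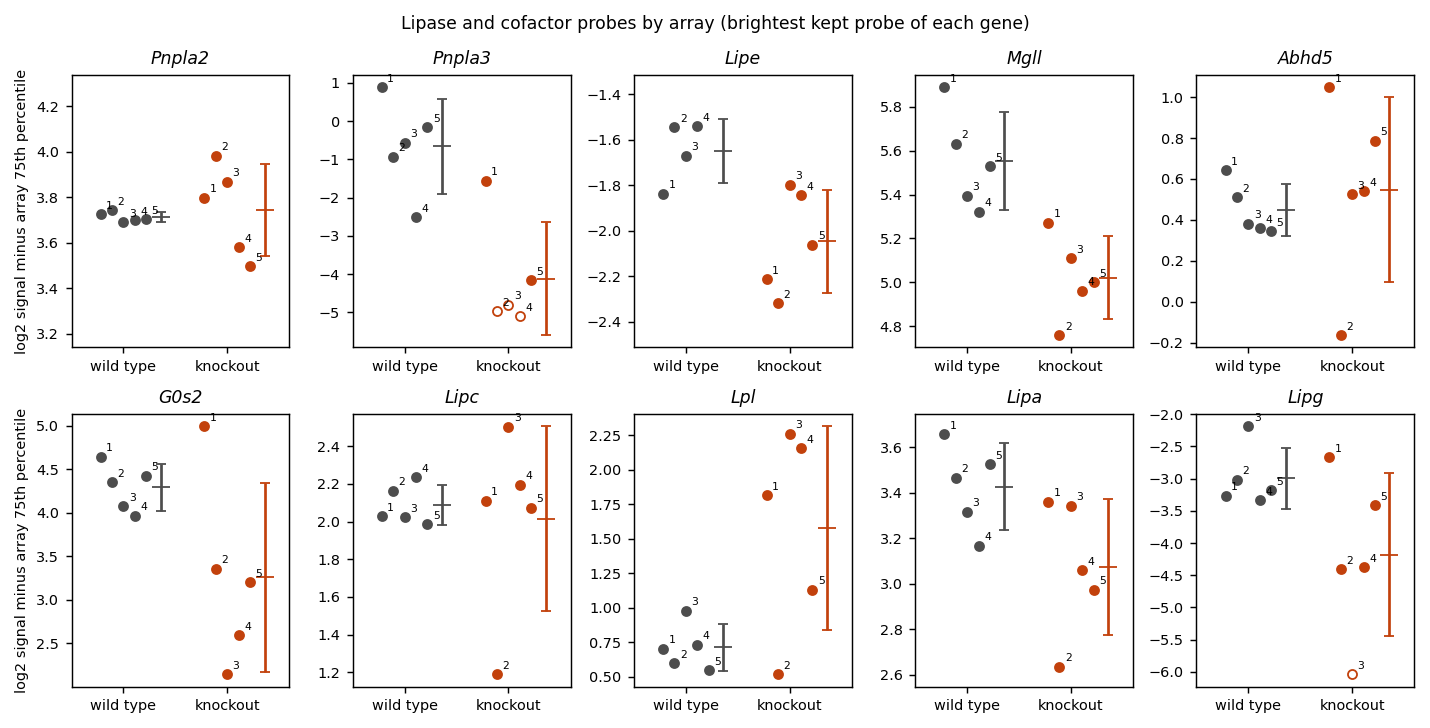
Log2 signal minus the array's 75th percentile (vertical axes, each with its own range) for the brightest kept probe of each gene, by array (numbered points) in wild type and knockout. Open points were not well above background, and bars give the mean ± SD. The 5 knockout points of Mgll all lie below the wild type, and KO1 is the highest knockout point for Pnpla3 and G0s2.

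Pnpla2, the first enzyme of droplet lipolysis, showed little spread between wild-type arrays and no difference past the test. It read 3.72, 3.74, 3.69, 3.70 and 3.70 in WT1 to WT5 and 3.80, 3.98, 3.87, 3.58 and 3.50 in KO1 to KO5. On the brightest probe KO1 to KO3, which shared slide 2, lay above all wild-type arrays, and KO4 and KO5, from the other slides, below them. The mean difference was 0.03 ± 0.10 (95% confidence interval -0.18 to 0.24, adjusted p = 0.866), and the second probe gave 0.07 ± 0.08. Within slide 2 the difference was 0.18, and the part of the slides in these values was not tested. Its sign turned with normexp correction (-0.08), with array weights (-0.03) and without KO2 (-0.03). On the second probe KO2 and KO3 lay above all wild-type arrays. KO1, KO4 and KO5 (1.02, 1.11 and 0.99) lay there within the wild-type range of 0.92 to 1.14.

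The Pnpla2 inhibitor G0s2 read 4.64, 4.35, 4.08, 3.97 and 4.43 in WT1 to WT5. In KO1 to KO5 it read 4.99, 3.36, 2.15, 2.59 and 3.21. KO1 was above every wild-type array and the other 4 knockout arrays were below every wild-type array. The difference was -1.03 ± 0.45 (95% confidence interval -2.03 to -0.04, adjusted p = 0.198), and -0.93 within slide 2. Without KO1 it was -1.47 (adjusted p = 0.015), so that the fit then called G0s2 lower. With any other array left out, the adjusted p (limma) lay between 0.238 and 0.319 and G0s2 was not called.

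Abhd5, the Pnpla2 activator, ran from 0.35 to 0.64 in the wild type and from -0.16 (KO2) to 1.05 (KO1) in the knockout. Its brightest probe gave 0.10 ± 0.19 (adjusted p = 0.795) and its other probe -0.19 ± 0.18, so the probes had opposite signs, and both 95% confidence intervals included 0. Abhd5 was the exception among the 6 genes with several kept probes, as the probes of the other 5 had the same sign. The Abhd5 difference was -0.03 without KO1. Set against each other on each array, the Pnpla2 level minus the G0s2 level ran from -0.92 to -0.27 in the wild type and from -1.20 to 1.72 in the knockout. That difference of differences was 1.07 ± 0.50 (exact permutation p = 0.063, adjusted p = 0.095 over 3 such pairs). Without KO1, the array at -1.20, it was 1.49 (exact permutation p = 0.0079, unadjusted, the smallest the remaining arrays can give). For Pnpla2 minus Abhd5 it was -0.07 ± 0.27 (exact permutation p = 0.84), with no constant sign across alternatives.

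Lipe, the diacylglycerol lipase, was missing on WT5 because its brightest spot there was an outlier, so 4 wild-type arrays entered. They read -1.84, -1.55, -1.67 and -1.54, and KO1 to KO5 read -2.21, -2.32, -1.80, -1.84 and -2.06. KO3 was above WT1, and apart from KO3 every knockout array lay below the 4 wild-type arrays. The difference was -0.40 ± 0.13 (adjusted p = 0.104), and the other Lipe probe, measured on all arrays, gave -0.28 ± 0.17 (adjusted p = 0.342 over the kept probes). The 95% confidence interval of the brightest probe, -0.69 to -0.11, did not include 0 before adjustment. The difference was -0.11 with normexp correction. With slide as a fixed block it could not be estimated, because without WT5 no slide held both groups.

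Lipa, the lysosomal acid lipase, ran from 3.17 to 3.66 in the wild type and from 2.64 (KO2) to 3.36 in the knockout. Its difference was -0.35 ± 0.15 (adjusted p = 0.191), and a second probe that targets another cDNA also gave -0.35 (± 0.18). That second probe was not well above background on KO3.

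**Figure D2:**
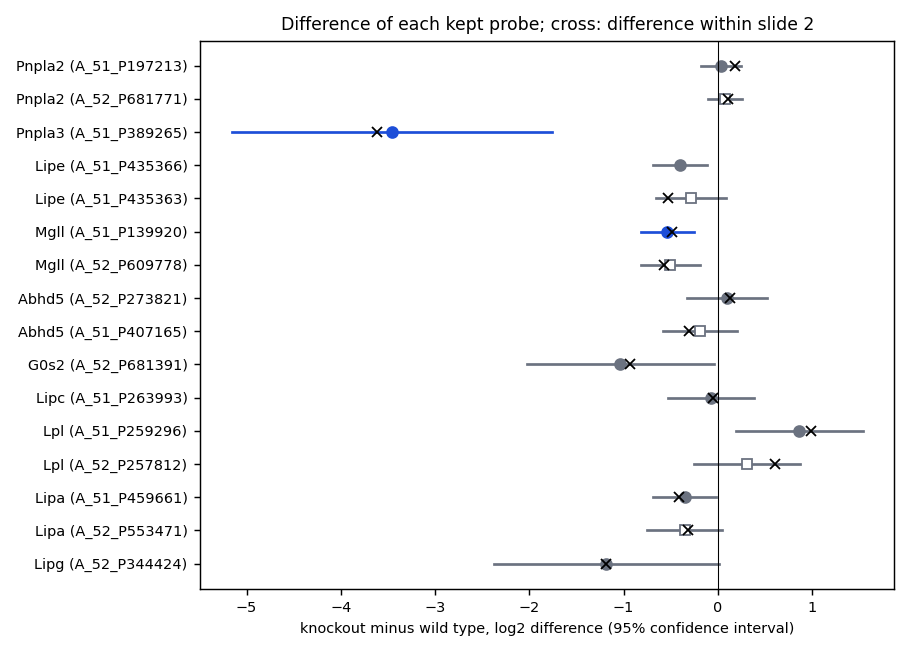
Knockout minus wild type log2 difference (horizontal axis) of the 16 kept probes, with 95% confidence intervals of the fit over all kept probes. Filled circles are the brightest probe of each gene, open squares further probes, blue marks the 2 probes with adjusted p under 0.05, and crosses are differences within slide 2 (none for the Lipe probe that is missing on WT5).

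Of the secreted lipases, Lpl had a positive difference. It read 0.70, 0.60, 0.98, 0.73 and 0.55 in WT1 to WT5. In KO1 to KO5 it read 1.82, 0.52, 2.26, 2.16 and 1.13. KO1, KO3, KO4 and KO5 were above every wild-type array, and KO2 was below every wild-type array. The difference was 0.86 ± 0.31 (95% confidence interval 0.18 to 1.55, adjusted p = 0.128), and 0.99 within slide 2. Without KO2 it was 1.13 (adjusted p = 0.020) and with array weights 0.94 (adjusted p = 0.037), so that both fits called Lpl higher. With any other array left out, the adjusted p (limma) lay between 0.133 and 0.240 and Lpl was not called. The second Lpl probe ran from -1.64 to -1.13 in the wild type and from -1.84 to -0.40 in the knockout, with a difference of 0.31 ± 0.25 (adjusted p = 0.503 over the kept probes).

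Lpl is also made by macrophages and adipocytes. Of 12 macrophage markers 1 rose, the scavenger receptor Cd163 (0.91 ± 0.22, adjusted p = 0.043), and the median difference was 0.35, with 2 higher and 0 lower at an unadjusted p under 0.05. Their summed level was 50.7 to 112.5 times the 75th percentile in the wild type and 47.3 to 109.0 times in the knockout, and their part in the Lpl values was not tested. Of 8 adipocyte markers, Adipoq, Lep, Adrb3 and Ucp1 were not well above background on any array, Plin1 was on 1 knockout array and Retn on 3 wild-type arrays. The remaining adipocyte markers were Cfd, which fell by 5.72 on the log2 scale (± 0.77, adjusted p = 0.0037), and Fabp4 (-0.25 ± 0.14). The summed level of Cfd and Fabp4 was 8.25 to 34.0 times the 75th percentile in the wild type and 4.12 to 7.03 times in the knockout. Of these genes Cfd passed the test and Fabp4 did not, and the part of adipocyte RNA in the Lpl values was not tested.

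Lipc, the hepatic lipase made by hepatocytes, read 2.03, 2.16, 2.02, 2.24 and 1.99 in WT1 to WT5 and 2.11, 1.19, 2.50, 2.19 and 2.07 in KO1 to KO5. KO2 was the lowest and KO3 the highest array, and the other knockout arrays lay within the wild-type range. The difference was -0.07 ± 0.21 (95% confidence interval -0.53 to 0.39, adjusted p = 0.863), and 0.13 without KO2. Its sign also turned without scaling between arrays (0.04) and with array weights (0.02). The Lpl level minus the Lipc level on the same array was -1.32, -1.57, -1.04, -1.50 and -1.44 in WT1 to WT5. It was -0.29, -0.67, -0.24, -0.04 and -0.94 in KO1 to KO5, so with the brightest Lpl probe every knockout array was above every wild-type array. The change was 0.94 ± 0.19 (exact two-sided permutation p = 0.0079, adjusted p = 0.024 over the 3 pairs), and 1.04 within slide 2. This ratio is free of the scaling between arrays, and with the mean of both Lpl probes it was 0.66 (exact permutation p = 0.024). On the second Lpl probe KO5 read -1.84, below every wild-type array, so the separation did not hold with that probe alone.

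Lipg, the endothelial lipase, read -3.26, -3.02, -2.19, -3.34 and -3.18 in WT1 to WT5. It read -2.67, -4.40, -6.04, -4.38 and -3.41 in KO1 to KO5, and on KO3 it was not well above background. KO1 lay among the wild-type arrays while the other knockout arrays were below them. The difference was -1.18 ± 0.54 (adjusted p = 0.217), which rests in part on the dim KO3 value. With KO3 raised to the detection floor the means of these arrays differed by at least 1.67-fold, a bound that leaves out the spread between arrays. Without KO3 the difference was -0.72, and with normexp correction it was -0.17 (adjusted p = 0.302 and 0.832). Of 10 endothelial markers 1 rose, the lymphatic and sinusoidal receptor Flt4 (0.58 ± 0.12, adjusted p = 0.025). At an unadjusted p under 0.05, 7 of the 10 were higher and 0 lower, and the median difference was 0.36. Their summed level was 20.7 to 28.8 times the 75th percentile in the wild type and 31.4 to 49.5 times in the knockout. These sums did not overlap and were higher in the knockout, the direction opposite to the Lipg values, and their part in them was not tested. Clec4g (0.58 ± 0.18, adjusted p = 0.088, limma) has the highest signal and weighs most in the sums. Lyve1 was the 1 marker with a negative difference (-0.51 ± 0.35). The Flt4 call was lost without any of 5 arrays and the Cd163 call, given above, without any of 7.

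The knockout arrays spread more than the wild type for 9 of the 10 genes, beside 78.5% of all genes. The median ratio of the knockout SD to the wild-type SD was 3.12 for the 10 genes and 1.61 for all genes. KO1 was the highest knockout array for Pnpla3, Mgll, Abhd5, G0s2, Lipa and Lipg, and the lowest for 0 genes. KO2 was the lowest knockout array for Lipe, Mgll, Abhd5, Lipc, Lpl and Lipa, and lay below every wild-type array for 9 genes, all but Pnpla2. KO3 had the highest Lpl and Lipc and the lowest G0s2 and Lipg.

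**Figure D3:**
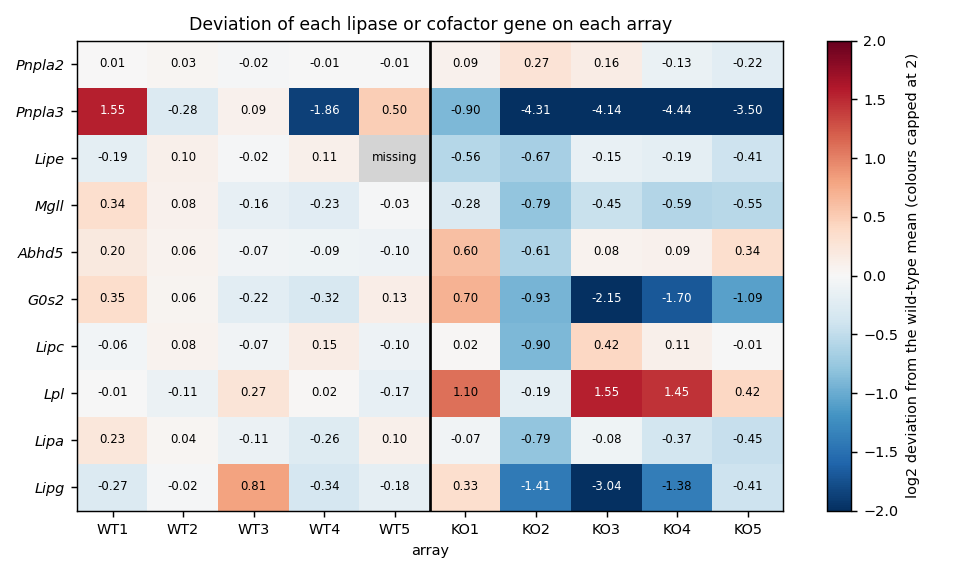
Log2 deviation of each gene (rows) on each array (columns) from the wild-type mean of that gene, printed in each cell; colours are capped at 2 in either direction and the grey cell is the outlier spot. The KO2 column is negative in every row but Pnpla2, and the KO1 column has positive values for G0s2, Lpl, Abhd5, Lipg and Lipc where KO2 has negative ones.

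Further genes of the same pathways were read from 5 lists, of which 52 of 69 genes could be tested. None rose by limma (0 genes, and 0 with a positive difference at an unadjusted p under 0.05), 6 fell (17 at an unadjusted p under 0.05), and 41 differences were negative, with a median of -0.19. Over all genes 3.48% were called lower, 23.7% had an unadjusted p under 0.05 in either direction, and 48.07% of differences were negative. Among 6 droplet coat and lipase access proteins, 2 fell: Plin2, which coats hepatocyte droplets (-0.68 ± 0.12, adjusted p = 0.015), and Plin4, another perilipin (-3.31 ± 0.47, adjusted p = 0.0051). The list's median was -0.39. Of 20 further intracellular neutral lipid hydrolases 0 changed by limma (6 were lower at an unadjusted p under 0.05), while 19 differences were negative and the median was -0.24. The smallest p was that of Abhd6, a monoacylglycerol hydrolase like Mgll (-0.41 ± 0.11, adjusted p = 0.054).

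Of 14 genes for the maturation, anchoring and control of lipoprotein lipase, 3 fell and 0 rose. They were Apoc2, the activating apolipoprotein of Lpl (-0.45 ± 0.08, adjusted p = 0.012), Sdc1, the heparan sulfate proteoglycan that takes up remnants in hepatocytes (-0.44 ± 0.08, adjusted p = 0.015), and Pcsk6, a proprotein convertase (-0.40 ± 0.10, adjusted p = 0.044). Gpihbp1, which anchors Lpl to capillaries, had a difference of 0.27 ± 0.18. Of 9 genes of lysosomal lipid handling 1 fell, M6pr, a receptor that sorts lysosomal enzymes (-0.29 ± 0.06, adjusted p = 0.028), with a list median of -0.03. Of 3 other lipase family enzymes 0 changed by limma (0 at an unadjusted p under 0.05), and Lcat, which esterifies cholesterol on HDL, was at 0.04 ± 0.08. The Pcsk6 call was lost without 7 of the 10 arrays, each left out in turn, and the M6pr call without 6, while those of Plin2, Plin4, Apoc2 and Sdc1 were kept without each.

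**Figure D4:**
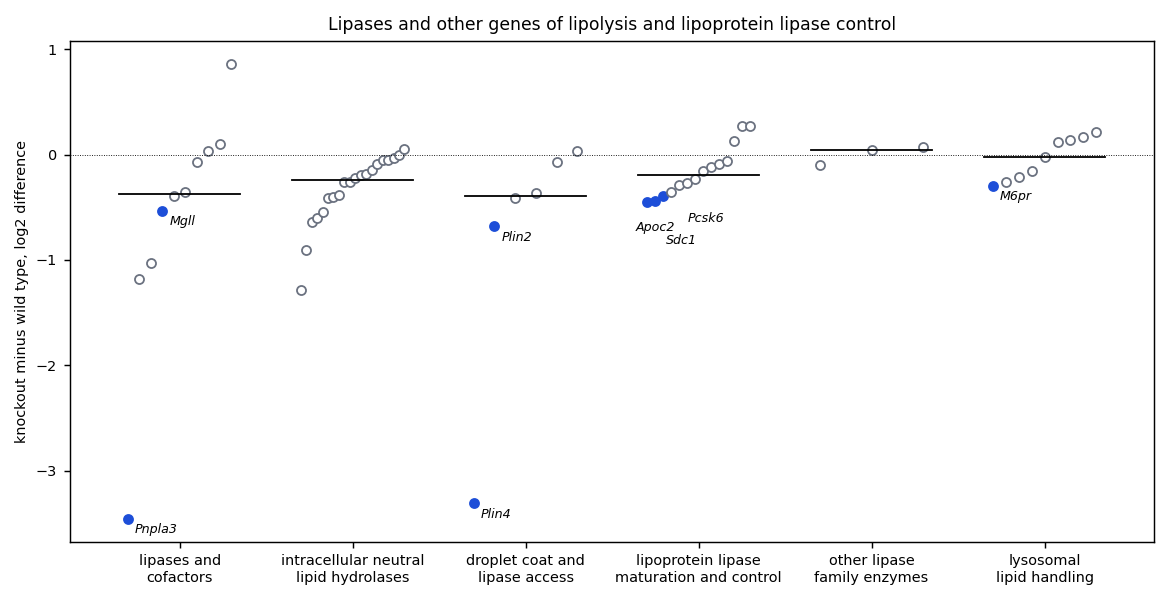
Knockout minus wild type log2 difference (vertical axis) of each tested gene in the 10 lipases and cofactors and in 5 lists of related genes; each point is a gene, filled points are named and have an adjusted p under 0.05, and the horizontal bars are medians. All 8 filled points lie below 0.

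Promoters from RefSeq, 250 bases before to 50 bases after each start in build GRCm38.p6, were given for 8 of the 10 genes, 11 promoters in all; Lpl and Lipg had none in the table. They were searched on both strands for AGGTCA, the core sequence bound by nuclear receptors of the TAK1 type, for AGGTCANAGGTCA, a direct repeat of it, for CACGTG, an E-box, and for TATAAA. The direct repeat was in none of the 11 promoters, and it was in 0.0396% of the 32851 promoters of the table. AGGTCA was found in Abhd5 and in 1 of the Lipc promoters, beside 16.3% of all promoters. CACGTG was found in 1 promoter each of Mgll and Lipe, beside 7.15%, and TATAAA in Lipa, beside 13.6%. The promoters of the 2 genes that fell are printed to show these windows, Pnpla3 at chr15:84167566-84167865 and the first of Mgll at chr6:88724162-88724461, both on the plus strand; capitals mark CACGTG, whose first base is at -44 from the Mgll start. A match describes letters and not a bound site.
Pnpla3: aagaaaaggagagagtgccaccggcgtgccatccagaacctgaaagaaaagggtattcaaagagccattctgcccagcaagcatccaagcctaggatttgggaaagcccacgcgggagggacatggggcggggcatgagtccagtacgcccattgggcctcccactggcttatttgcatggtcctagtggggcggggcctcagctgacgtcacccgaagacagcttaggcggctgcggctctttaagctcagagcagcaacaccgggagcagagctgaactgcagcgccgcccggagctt
Mgll: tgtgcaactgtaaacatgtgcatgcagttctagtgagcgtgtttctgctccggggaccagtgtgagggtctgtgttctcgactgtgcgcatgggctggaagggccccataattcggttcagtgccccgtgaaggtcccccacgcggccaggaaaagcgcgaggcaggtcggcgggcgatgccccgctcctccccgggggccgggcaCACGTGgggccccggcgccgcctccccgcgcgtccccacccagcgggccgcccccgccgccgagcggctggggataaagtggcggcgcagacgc

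**Figure D5:**
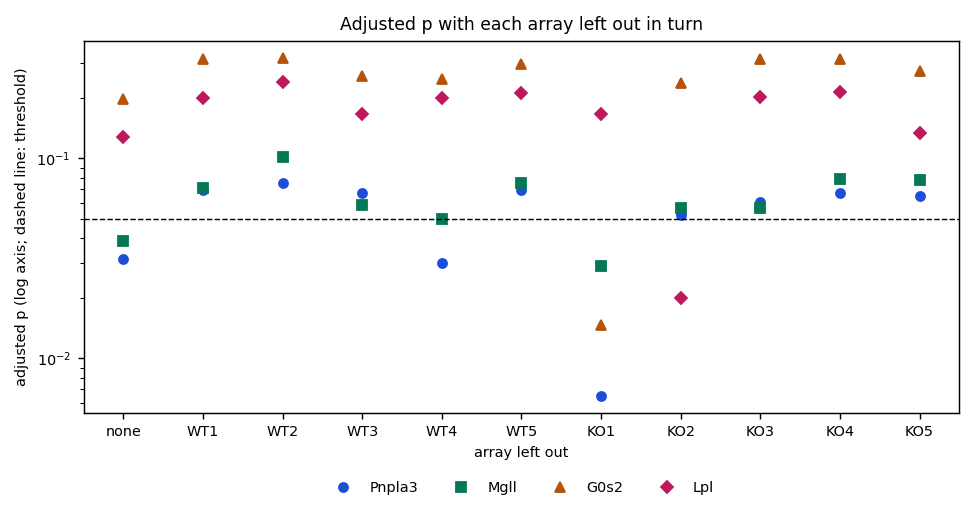
Adjusted p over all genes (log axis) for Pnpla3, Mgll, G0s2 and Lpl with all arrays and with each array left out (horizontal axis); the dashed line is the threshold of 0.05. Pnpla3 and Mgll stay under the line only with all arrays, without WT4 and without KO1, while G0s2 falls under it without KO1 and Lpl without KO2.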

How the data were processed

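Liver RNA of 5 wild-type and 5 TAK1 knockout samples was measured on 1-colour Cy3 Agilent arrays. The authors' deposited intensity values come, per the file headers, from Feature Extraction 9.5.1.1 (the submitters' processing notes name version 9.5), which subtracted background within each array and did not normalise between arrays. The same intensities stood in the deposited series table. Here log2 was taken without a pseudocount, each array's 75th percentile (950.3 to 1344) was subtracted, and outlier spots were set to missing. Probe coordinates are mm7, per the file headers, and no genome was used to place probes in exons. Symbols were updated through RefSeq, by accession for 22951 probes, by current symbol for 6659 and by older symbol for 3108, while 8456 kept the file's name. The members followed the file's own names, so 1 probe named 4933403G17Rik, an older symbol of Lipe, was not counted.

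The knockout effect was fitted with limma 3.58.1 (lmFit, eBayes; R 4.3.3), genotype being the only term, with Benjamini-Hochberg adjustment over 15804 genes or 23262 kept probes. Pairs of genes were compared by exact two-sided permutation of arrays. A dim knockout spot was raised to the lowest signal of any probe well above background on its array to give a bound on the fold. This bound concerns the dim spots only and does not include the spread between arrays. The number of arrays limits the precision. In the alternatives with normexp correction, 50 was added to every signal before log2, which by itself narrows differences of dim probes.

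The members and lists were chosen with earlier results of these data known. Named were all 10 genes, Nr2c2 and the probes at its locus, up to 3 changed genes per list with the smallest p or otherwise the 1 with the smallest p, and changed markers. Fabp4, Gpihbp1 and the markers below background were named after their values were seen. Stellate markers (0 of 7 changed by limma, 2 higher at an unadjusted p under 0.05, median 0.19) and pancreatic acinar markers (1 of 6 tested, Ctrb1, 0.76, adjusted p = 0.138) were also read. Same-numbered arrays deviated with correlations of -0.21 to 0.04. These values cannot tell whether equal numbers mark paired samples, and the main fit treats the samples as unpaired.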

Additional observations from a re-analysis of the deposited data

Results flagged for a closer look

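In 2 of 38 groups of arrays tested, 1 array stood apart from the rest by Dixon's criterion, which chance meets in about 1 in 20 groups. For Pnpla3 in the knockout, KO1 was at -1.56 and the next array, KO5, at -4.16. For Lipg in the wild type, WT3 was at -2.19 and the next array, WT2, at -3.02.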

How the results depend on the processing

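Against 2 genes called lower with the main settings, normexp with 75th percentile scaling, no filter on dim probes, slide as a fixed block and slide 2 alone called 0 of the 10, and no scaling between arrays (Pnpla3), a filter on all arrays (Mgll of 8 tested), probe means (Pnpla3) and the replicate block (Pnpla3) called 1. Leaving out each array gave 0 to 3. Over all genes, the 934 calls became 86, 466, 247, 38 and 2 with normexp, no scaling (310 higher, 156 lower; all genes shifted by a median of 0.12), no filter, the fixed slide block and slide 2, 1450 with slide as a random block, 166 with the replicate block, and 297 to 1190 with an array left out. Calls among member probes became 0 without the filter and 0 to 4 with an array left out. Pathway calls (6) became 1, 2, 2, 0 and 0 in the same order, and 1 with the replicate block. These normexp counts are with 75th percentile scaling. Normexp with quantile normalization kept the calls of Pnpla3 and Mgll, with 869 calls over all genes and 6 in the pathway lists. The cause of these changes in calls was not tested, except that slide 2 leaves 4 arrays. The fixed slide block takes its difference from the same 4 arrays, with WT5 the only wild-type array, as no other slide holds both groups. Pnpla2 minus Abhd5 turned sign with probe means (0.10), in slide 2 (0.053), and between -0.304 and 0.0548 with an array left out (positive without KO1, 0.0451, or KO5); Pnpla2 minus G0s2 ranged from 0.76 to 1.49, the latter without KO1. Sign also turned for Abhd5 with probe means (-0.0434) or without KO1 (-0.0253, with a range over left-out arrays up to 0.278), Lipc without scaling (0.0358), with array weights (0.0187) or without KO2 (0.133, from -0.195), Pnpla2 with normexp (-0.085), array weights (-0.0339) or without KO2 (-0.0263, up to 0.095), and Lcat with normexp (-0.114) or without KO2 (-0.0052, up to 0.082). Of 247 values of the 10 genes under 25 alternatives, 209 kept direction and side of the threshold. Most of these belong to the 8 genes that were not called with the main settings. Pnpla3 kept its call in 12 of 24 alternatives and Mgll in 10 of 25. Blocks, array weights and trended variances belong to limma and were not run for the exact tests of pairs. Pnpla3 and Lipg had no value under the filter on all arrays, nor Lipe in slide 2. The 247 include a Lipe value for slide as a fixed block. It sets only KO4 against the wild-type arrays of slide 1 and is no slide-adjusted difference. Probes near background, as for Pnpla3 and Lipg in the knockout, carry only a bound.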
